A study of Mus musculus with 8 samples.

Results

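The genes described here encode the subunits that join the RING finger proteins PCGF3 and PCGF5 in variant Polycomb repressive complex 1 (PRC1). They are the catalytic subunits Ring1 and Rnf2, the paired subunits Rybp and Yaf2, the AUTS2 family genes Auts2, Fbrs and Fbrsl1, and the casein kinase 2 genes Csnk2a1, Csnk2a2 and Csnk2b. These 10 genes were taken by symbol, for their known place in the complex, from the 47069 genes of the deposited tables. No measured value entered that rule, but earlier results of these data were known when it was made. All 10 were found, and all 10 passed the filter on low counts.

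Poly-A RNA had been sequenced from mouse embryonic stem (ES) cells of strain C57BL/6, in 4 groups of 2 libraries. Pcgf3KO cells had been edited with Cas9 at Pcgf3, Pcgf5KO cells at Pcgf5 and DKO cells at both, and WT cells were wild type. All groups grew in serum with leukemia inhibitory factor on fibroblasts stopped with mitomycin-C, and RNA of these feeder cells may have entered the libraries. The labels do not say whether replicates were separate cultures or clones, so p-values measure only the spread between these libraries.

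The WT replicate 1 table, in the copy at hand, lists 8093 genes, the first 17.2% of the gene list, and 0 of the 10 members. Every WT value below therefore comes from WT replicate 2 alone, its spread is taken from the other groups, and no difference from WT has a replicate check on that side. The 7 full libraries held between 12652616 and 19923964 counts. The 10 members had between 110 counts (Ring1 in WT) and 6345 counts (Csnk2a1 in Pcgf3KO replicate 1) per library. All 8 ES cell markers, such as Pou5f1 and Nanog, exceeded 1 CPM (counts scaled to library size) in each of the 7 libraries. Their summed level was 3178 to 3292 CPM in Pcgf3KO, 3450 to 3475 in Pcgf5KO and 2869 to 3067 in DKO cells, against 2764 in WT. Dppa5a was called higher in Pcgf3KO than in WT, and Pou5f1, Tdgf1 and Dppa5a in Pcgf5KO than in WT (edgeR, adjusted p of at most 0.05). Pou5f1 and Dppa5a were called lower in DKO than in Pcgf5KO. Both were also called for the interaction defined below, at −0.58 and −1.22 on the log2 scale. The shares of all genes called in these tests were 2.36%, 2.99%, 2.28% and 3.79%. Esrrb was below WT in all 6 edited libraries, at 377 to 463 CPM against 493.5. In DKO against WT, 3 of the 8 markers had negative estimates. The targeted genes were still transcribed: Pcgf3 was at 66.1 and 60.5 CPM in Pcgf3KO cells, 92.3 and 94.1 in Pcgf5KO cells and 86.6 and 67.2 in DKO cells, against 110 in WT. Pcgf5 was at 17.3 and 17.4 CPM in Pcgf3KO cells, 12.3 and 9.06 in Pcgf5KO cells and 13.5 and 13.9 in DKO cells, against 20.7 in WT. In DKO against WT neither passed the test used below: the log2 fold change was −0.51 ± 0.14 for Pcgf3 (standard error; adjusted p = 0.0899) and −0.60 ± 0.18 for Pcgf5 (adjusted p = 0.114, edgeR). Whole-gene counts do not show which exons were edited. The DKO libraries stood furthest apart by both measures computed. The chi-square per gene between replicates, which grows with depth, was 18.4, against 3.32 in Pcgf3KO cells and 1.88 in Pcgf5KO. The standard deviation of the log2 difference between replicates was 0.474 in DKO cells, against 0.328 in Pcgf3KO and 0.361 in Pcgf5KO.

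PRC1 attaches a single ubiquitin to a core histone, a mark found at silent developmental genes. RING1 or RNF2 is the E3 ubiquitin ligase of every PRC1, and the PCGF protein beside it sets which other subunits can join. Variant complexes carry RYBP or its paralog YAF2, zinc finger proteins that occupy the place that chromobox proteins take in canonical PRC1 and that stimulate the ligase. The complexes built on PCGF3 or PCGF5 also hold an AUTS2 family protein and casein kinase 2, a kinase made of catalytic alpha subunits and a regulatory beta subunit. AUTS2 is best known from the developing brain.

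Several members are paralogs, so their sequences bear on whether reads can be assigned to 1 gene. The lines below give the longest run of identical bases between the coding sequences of each of 3 paralog pairs, in capitals, with up to 20 coding bases on each side, read 5′ to 3′ from GENCODE M21 transcripts.
Ring1: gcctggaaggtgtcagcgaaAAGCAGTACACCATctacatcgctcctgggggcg
Rnf2: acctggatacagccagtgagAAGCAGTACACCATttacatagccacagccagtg
Rybp: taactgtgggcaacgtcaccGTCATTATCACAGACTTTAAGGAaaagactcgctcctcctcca
Yaf2: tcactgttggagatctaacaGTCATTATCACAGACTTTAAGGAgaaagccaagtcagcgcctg
Csnk2a1: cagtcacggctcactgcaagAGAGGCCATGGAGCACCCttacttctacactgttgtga
Csnk2a2: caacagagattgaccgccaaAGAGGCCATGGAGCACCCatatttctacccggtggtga
The identical run was 14 bases in Ring1 and Rnf2, 23 in Rybp and Yaf2, and 18 in Csnk2a1 and Csnk2a2, all much shorter than the windows of 50 bases used next. Of the 50-base windows of the longest coding transcript, 0 were found in the transcripts of another gene for Ring1, Rnf2, Yaf2, Csnk2a2 and Csnk2b. Csnk2a1 shared the most: 2313 of its 4157 windows (55.6%) also occur in Gm10031, an annotated gene with 0 counts in each of the 7 libraries. How reads matching both were counted is not given in the sources used here, so the level of Csnk2a1 relative to other genes is uncertain. Rybp shared 9.5% of its windows with the pseudogene Rybp-ps, which had 0 to 3 counts per library. Fbrsl1 shared 9.98% of its windows with Gm42596, which is annotated as antisense to it and had 0 to 2 counts. Fbrs and Auts2 shared 1.02% and 0.131% of theirs with other genes. The library kit does not mark strand, so reads from Rnf2 and Csnk2b cannot be told apart from those of the genes Trmt1l and Gpank1 on the other strand over the 158 and 62 exon bases they share (3.83% and 3% of the exon bases of Rnf2 and Csnk2b). The same holds for Fbrsl1 over 515 exon bases shared with Gm42596 (6.38%) and 196 with Gm26711 (2.43%), a noncoding gene with 3 to 17 counts per library.

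How abundant is each subunit's transcript? Levels between genes were compared as CPM per kilobase of exon (union of all annotated exons). By the median of the 7 libraries, Csnk2a1 (43.9, range 42.3 to 46.4), Rybp (43.6, 39.8 to 49.9), Csnk2b (42.1, 36.6 to 49.7) and Rnf2 (39.5, 35.3 to 41.9) were the most abundant. Their ranges overlapped, save that every Csnk2a1 value was above every Rnf2 value. Fbrsl1 followed at 12.2 (range 10.01 to 13.3) and Csnk2a2 at 8.40 (8.05 to 8.69), without overlap between the pair. Yaf2 had 5.76 (4.55 to 7.08), Fbrs 4.24 (3.59 to 4.53), Ring1 2.52 (1.93 to 3.19) and Auts2 1.55 (1.48 to 1.86). From Fbrsl1 down to Auts2, no range overlapped that of the next gene. The order depends on the length used. Per kilobase of the longest coding transcript, Csnk2b (median 90.5, range 78.6 to 106.9) lay wholly above Csnk2a1 (74.0, 71.3 to 78.2), and Rnf2 (50.9, 45.55 to 53.95) and Rybp (45.9, 41.9 to 52.5) lay wholly below both. Auts2 moved most in rank: its annotated exons span 22890 bases in all but its longest coding transcript 5392, and per kilobase of that transcript its median was 6.57, against 4.02 for Ring1 and 4.95 for Fbrs. Each paralog pair thus had 1 dominant transcript, Rnf2 over Ring1, Rybp over Yaf2 and Csnk2a1 over Csnk2a2, in each of the 7 libraries and by both lengths.

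**Figure D1:**
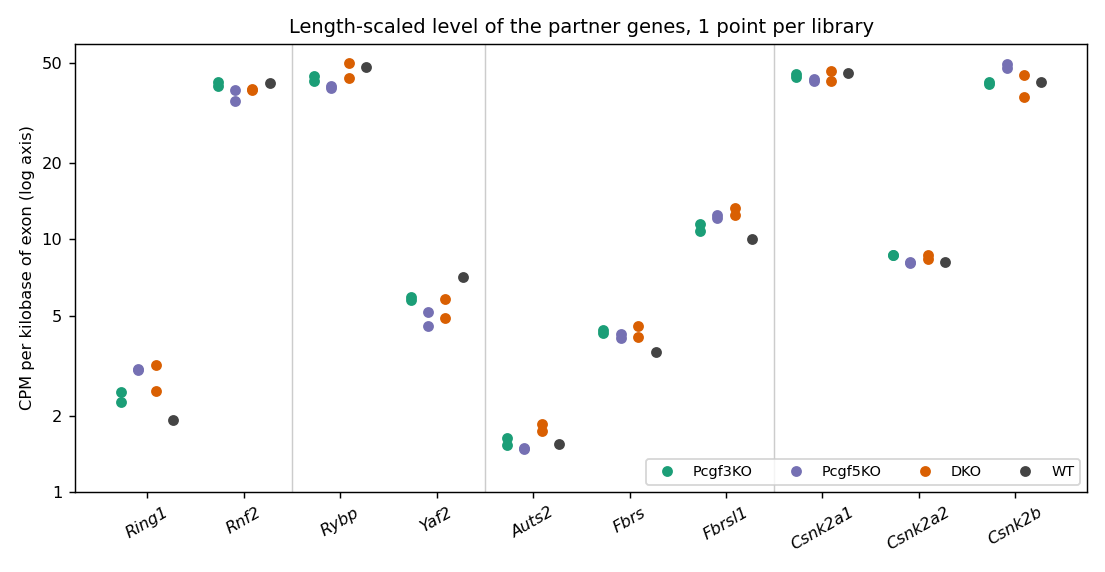
Length-scaled level (CPM per kilobase of exon, log axis) of the 10 partner genes, with 1 point per library: 2 each for Pcgf3KO, Pcgf5KO and DKO, and 1 for WT. Grey lines divide the catalytic, RYBP/YAF2, AUTS2 family and casein kinase 2 genes. Rnf2, Rybp, Csnk2a1 and Csnk2b lie between 35.3 and 49.9, and Ring1 lies between 1.93 and 3.19.

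Does loss of Pcgf3, Pcgf5 or both alter the transcripts of the partner subunits? In none of 7 comparisons, nor in a test for any difference among the 4 groups, did a member pass edgeR's quasi-likelihood test at an adjusted p of 0.05. The background of all 15669 genes tested was low as well: 2.36% passed in Pcgf3KO against WT, 2.99% in Pcgf5KO against WT and 3.22% in DKO against WT. It was 1.74% in DKO against Pcgf3KO, 2.28% in DKO against Pcgf5KO, 0.14% in Pcgf5KO against Pcgf3KO, 3.79% for the interaction and 4.98% for any difference. At such shares, 0 of 10 is near the background and is no result about the members. The interaction sets the DKO change against the added changes of both single knockouts, and is positive where DKO exceeds them. DESeq2 also called 0 members in each of these tests. Of all genes it called 2.51% in Pcgf3KO, 3.18% in Pcgf5KO and 3.29% in DKO against WT, 2.37% in DKO against Pcgf3KO, 5.13% in DKO against Pcgf5KO, 0.504% in Pcgf5KO against Pcgf3KO, 4.15% for the interaction and 7.1% for any difference.

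At an unadjusted p of 0.05, edgeR gave 0 of 10 members in Pcgf3KO against WT, where 15.9% of all genes reached it. In Pcgf5KO against WT it gave 4 of 10 (19.5% of all genes), and these were Ring1, Rybp, Yaf2 and Fbrsl1. In DKO against WT it gave 3 of 10 (19.4%), Ring1, Yaf2 and Fbrsl1. DKO against Pcgf3KO gave 1, Fbrsl1 (18.2%), DKO against Pcgf5KO 3, Rybp, Auts2 and Csnk2b (25.8%), Pcgf5KO against Pcgf3KO 0 (8.5%) and the interaction 1, Rybp (23.2%). The test for any difference gave 2, Ring1 and Fbrsl1 (25.3%). The same counts from DESeq2 were 0, 4, 1, 0, 3, 0 and 1 in that order of comparisons, and 1 for any difference. The median log2 fold change of the members was 0.01 in Pcgf3KO, −0.03 in Pcgf5KO cells and 0.02 in DKO against WT, beside medians of 0.00, 0.00 and 0.01 over all genes tested.

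**Figure D2:**
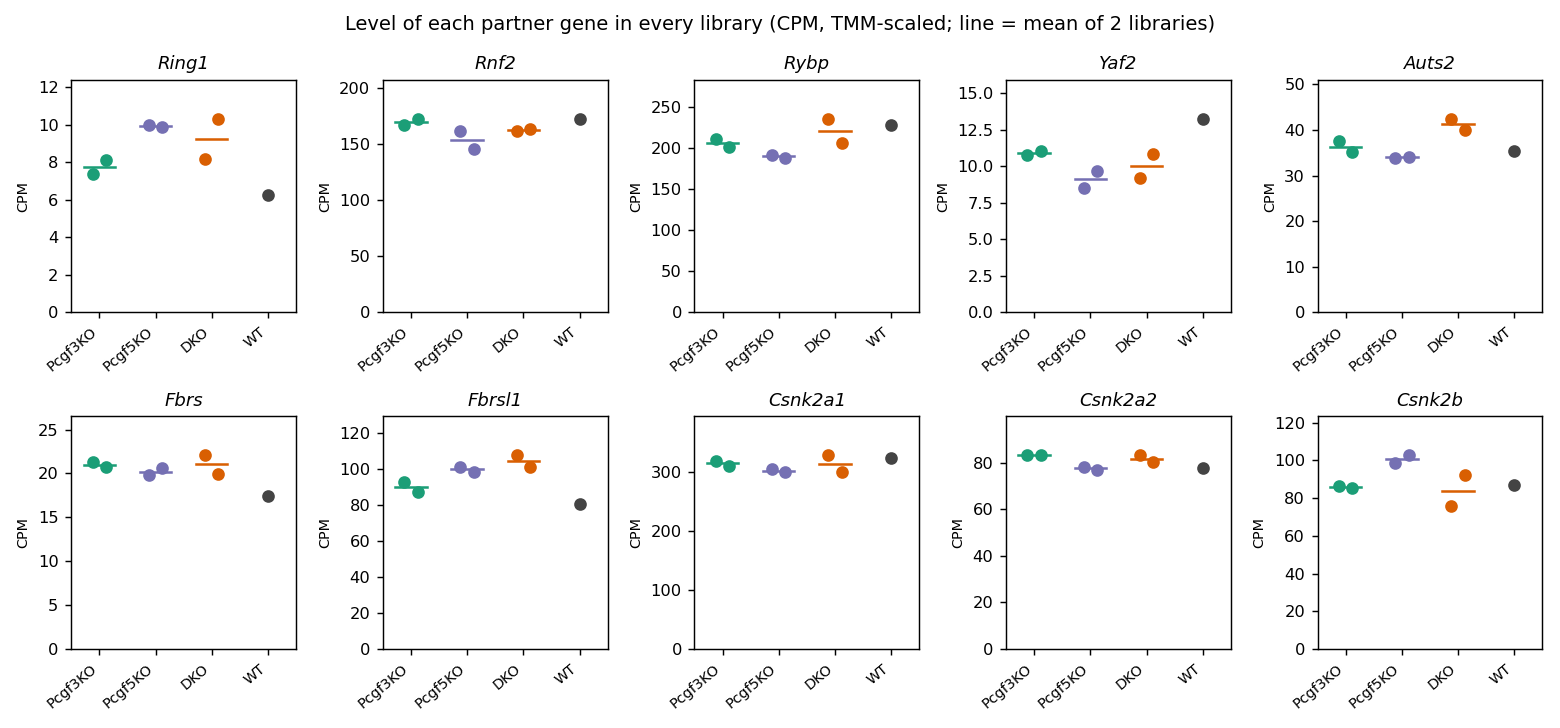
CPM of each of the 10 partner genes in Pcgf3KO, Pcgf5KO, DKO and WT, with 1 point per library and a line at the mean of 2 libraries (WT has 1). Each axis starts at 0. Ring1, Fbrs and Fbrsl1 are lowest, and Yaf2 highest, in the WT library, while Csnk2a1 and Csnk2a2 are nearly level across the 7 libraries.

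Of the catalytic subunits, Ring1 (ENSMUSG00000024325, chromosome 17, 34020792 to 34024680, minus strand, mm10) had 7.36 and 8.11 CPM in Pcgf3KO cells, 10 and 9.87 in Pcgf5KO cells and 8.17 and 10.3 in DKO cells, against 6.26 in WT. All 6 edited libraries lay above WT, and the Pcgf5KO pair lay above the Pcgf3KO pair. The log2 fold change was 0.67 ± 0.21 in Pcgf5KO (standard error; adjusted p = 0.141; 95% interval 0.18 to 1.15), and 0.56 ± 0.21 in DKO (adjusted p = 0.192; 0.09 to 1.04). In Pcgf3KO it was 0.30 ± 0.21 (adjusted p = 0.555; −0.18 to 0.78). With 110 counts in the WT library, Ring1 was the least deeply counted member, and its intervals were the widest.

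Rnf2 (ENSMUSG00000026484, chromosome 1, 151458004 to 151500955, minus strand), the main PRC1 ligase of ES cells, had 167 and 173 CPM in Pcgf3KO cells, 162 and 146 in Pcgf5KO cells and 162 and 163 in DKO cells, against 172 in WT. The WT value lay inside the range of the edited libraries. The log2 fold change was −0.02 ± 0.10 in Pcgf3KO, −0.16 ± 0.10 in Pcgf5KO and −0.09 ± 0.10 in DKO. The adjusted p was 0.943, 0.378 and 0.657 in edgeR's test. Across the 3 comparisons with WT the 95% intervals of Rnf2 ran from −0.38 to 0.19.

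The ratio of the 2 ligase transcripts joins these values. Rnf2 per kilobase exceeded Ring1 17.8-fold and 16.7-fold in Pcgf3KO cells, 12.7-fold and 11.6-fold in Pcgf5KO cells and 15.6-fold and 12.4-fold in DKO cells, against 21.6-fold in WT. The ratio was lower in all 6 edited libraries than in the WT library, and lowest in Pcgf5KO replicate 2, while Pcgf5KO and DKO values overlapped. Groups of 2 cannot reach an exact permutation p under 0.333, so the ratios are given without a test.

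Promoters of the ligase pair are shown because this pair differed most in level of the 3 paralog pairs. Each spans 250 bases before to 50 after the RefSeq start in GRCm38.p6, on the minus strand for both, at chr17:34024631-34024930 for Ring1 and chr1:151500942-151501241 for Rnf2. Capitals mark GGGCGG (the SP1 motif, either strand).
Ring1: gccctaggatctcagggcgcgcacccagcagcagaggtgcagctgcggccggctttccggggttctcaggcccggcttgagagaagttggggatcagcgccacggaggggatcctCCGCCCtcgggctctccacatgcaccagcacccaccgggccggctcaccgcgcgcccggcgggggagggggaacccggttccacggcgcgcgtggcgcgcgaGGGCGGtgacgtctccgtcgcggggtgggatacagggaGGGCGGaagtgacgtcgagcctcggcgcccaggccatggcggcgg
Rnf2: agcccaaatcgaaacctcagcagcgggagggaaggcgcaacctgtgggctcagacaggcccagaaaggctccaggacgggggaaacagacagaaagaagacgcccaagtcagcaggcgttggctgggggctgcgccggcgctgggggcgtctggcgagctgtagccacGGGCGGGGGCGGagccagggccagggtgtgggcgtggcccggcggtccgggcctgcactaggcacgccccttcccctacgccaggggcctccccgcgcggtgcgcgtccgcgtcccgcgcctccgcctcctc
Ring1 held 3 such matches and Rnf2 2, and 35.7% of the 32851 promoters in the table hold at least 1. Both windows are rich in CpG, with 37 in Ring1 and 30 in Rnf2, against a median of 7 over all promoters. Neither window held the NRF1 motif, the E-box CACGTG, the YY1 motif AANATGGC, the E2F motif TTCCCGC or the ETS motif CCGGAAGT, searched on both strands. These letters were found in 4.6%, 7.15%, 6.05%, 4.6% and 3.89% of all promoters. Of the 10 members 7 matched the table, all but Rybp, Yaf2 and Auts2, and among their 10 starts only Csnk2b starts held any of these other motifs, with NRF1 in 1 and E2F in another.

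Rybp and Yaf2 encode the subunits that mark a PRC1 as variant. Rybp (ENSMUSG00000072872, chromosome 6, 100228565 to 100287485, minus strand) had 211 and 201 CPM in Pcgf3KO cells, 192 and 189 in Pcgf5KO cells and 236 and 207 in DKO cells, against 228 in WT. The Pcgf5KO pair was the lowest, and only DKO replicate 1 lay above WT. The log2 fold change was −0.14 ± 0.10 in Pcgf3KO (adjusted p = 0.553), −0.26 ± 0.10 in Pcgf5KO (0.204) and −0.04 ± 0.10 in DKO (0.856). Rybp also had the smallest adjusted p of the members for the interaction, at 0.36 ± 0.13 (adjusted p = 0.143). All 4 single-knockout libraries lay below WT, while the DKO libraries lay on either side of it.

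Yaf2 (ENSMUSG00000022634, chromosome 15, 93284278 to 93336935, minus strand) had 10.8 and 11.1 CPM in Pcgf3KO cells, 8.52 and 9.71 in Pcgf5KO cells and 9.17 and 10.9 in DKO cells, against 13.3 in WT. WT was above all 6 edited libraries. The log2 fold change was −0.28 ± 0.18 in Pcgf3KO (adjusted p = 0.505), −0.55 ± 0.18 in Pcgf5KO (0.152) and −0.40 ± 0.18 in DKO (0.254). Its 95% interval in Pcgf5KO was −0.96 to −0.14. Rybp per kilobase exceeded Yaf2 7.75-fold and 7.18-fold in Pcgf3KO cells, 8.91-fold and 7.68-fold in Pcgf5KO cells and 10.2-fold and 7.51-fold in DKO cells, against 6.79-fold in WT.

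**Figure D3:**
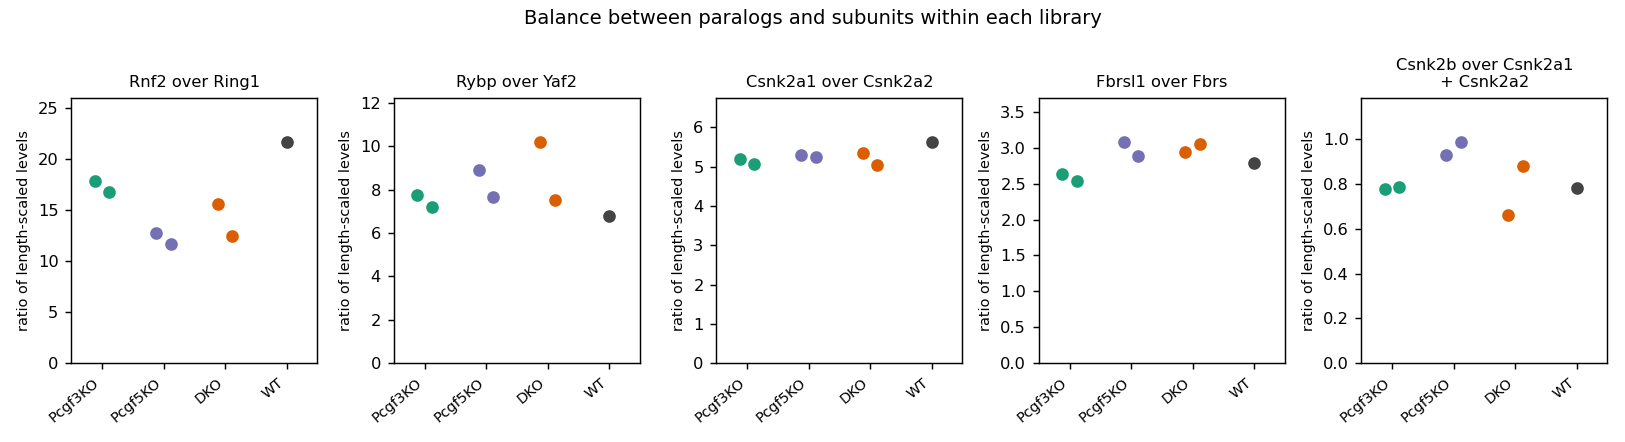
Ratio of length-scaled levels (CPM per kilobase of exon) between paralogs or subunits in each library, 1 point per library, for Pcgf3KO, Pcgf5KO, DKO and WT. Rnf2 over Ring1 runs from 11.6 in Pcgf5KO replicate 2 to 21.6 in WT, while Csnk2a1 over Csnk2a2 stays between 5.05 and 5.63.

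The AUTS2 family supplies subunits of the PCGF3 and PCGF5 complexes. Auts2 (ENSMUSG00000029673, chromosome 5, 131437333 to 132543344, minus strand) had 37.6 and 35.1 CPM in Pcgf3KO cells, 34.0 and 34.1 in Pcgf5KO cells and 42.5 and 39.9 in DKO cells, against 35.4 in WT. The DKO pair was the highest of all libraries. The log2 fold change in DKO was 0.22 ± 0.12 against WT (adjusted p = 0.338), 0.18 ± 0.09 against Pcgf3KO (0.334) and 0.28 ± 0.10 against Pcgf5KO (0.12). In the single knockouts Auts2 was at 0.04 ± 0.12 (Pcgf3KO) and −0.06 ± 0.12 (Pcgf5KO) on the log2 scale against WT. Auts2 is also abundant in neurons. Of 7 neural markers, all tested, 0 were called higher than in WT in any knockout (edgeR, adjusted p of at most 0.05). Called lower were 2 in Pcgf3KO, 2 in Pcgf5KO and 3 in DKO, beside 2.36%, 2.99% and 3.22% of all genes called. By estimate 1 was above WT in Pcgf5KO (Pax6, 0.10 ± 0.32) and 1 in DKO (Dcx, 0.76 ± 0.85, under 1 CPM in every library). The summed level of the 7 was 207 to 218 CPM in Pcgf3KO, 248 to 256 in Pcgf5KO and 145 to 181 in DKO cells, against 310 in WT. Tubb3, Map2 and Neurod1 made up most of that sum, Dcx was at 0 in both Pcgf3KO libraries, and their part in the Auts2 values was not tested.

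Fbrsl1 (ENSMUSG00000043323, chromosome 5, 110361754 to 110448503, minus strand), the AUTS2 paralog most abundant here, had 92.7 and 87.4 CPM in Pcgf3KO cells, 101 and 98.5 in Pcgf5KO cells and 108 and 101 in DKO cells, against 80.9 in WT. All 6 edited libraries lay above WT. Fbrsl1 had the smallest p of the members for any difference among the groups (unadjusted p = 0.0163, adjusted p = 0.128 in edgeR's test). The log2 fold change was 0.16 ± 0.10 in Pcgf3KO (adjusted p = 0.507), 0.31 ± 0.10 in Pcgf5KO (0.146) and 0.37 ± 0.10 in DKO (0.0873). The last adjusted p was the smallest among the members in any comparison. The interval in DKO was 0.15 to 0.59.

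Fbrs (ENSMUSG00000042423, chromosome 7, 127479592 to 127491711, plus strand), the other paralog, had 21.3 and 20.8 CPM in Pcgf3KO cells, 19.8 and 20.6 in Pcgf5KO cells and 22.1 and 19.97 in DKO cells, against 17.5 in WT. Its log2 fold changes against WT were alike in size, 0.27 ± 0.14 in Pcgf3KO (adjusted p = 0.402), 0.21 ± 0.14 in Pcgf5KO (0.45) and 0.27 ± 0.14 in DKO (0.328). As for Ring1 and Fbrsl1, the WT library was the lowest of 7. Auts2 made up 8.2% to 10.2% of the summed length-scaled level of the 3 family genes by exon union, and 19.4% to 23.6% by the longest coding transcript.

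**Figure D4:**
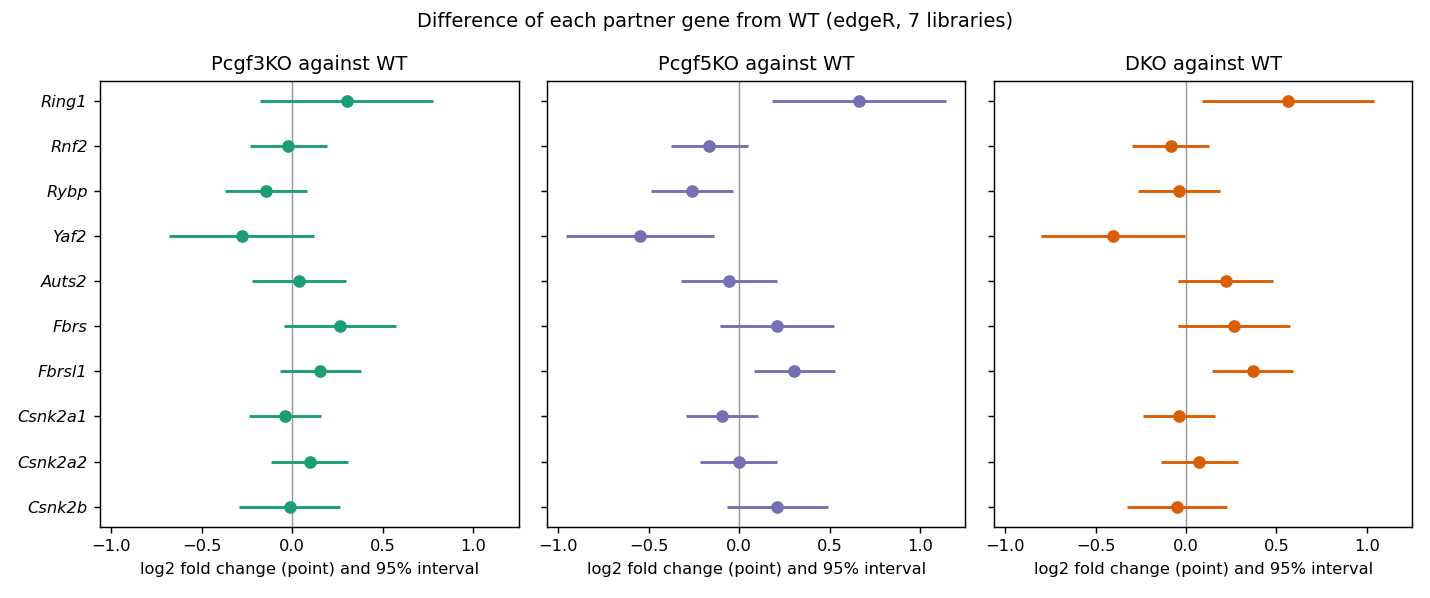
Log2 fold change of each partner gene in Pcgf3KO, Pcgf5KO and DKO against WT from the edgeR fit of 7 libraries; points are estimates and bars 95% intervals. Bars of Ring1 reach 1.15, those of Csnk2a1 stay between −0.30 and 0.16.

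Casein kinase 2 is an abundant kinase with many substrates outside Polycomb. Csnk2a1 (ENSMUSG00000074698, chromosome 2, 152226839 to 152281852, plus strand), its main catalytic subunit gene, had 320 and 311 CPM in Pcgf3KO cells, 306 and 299.8 in Pcgf5KO cells and 329 and 301 in DKO cells, against 324 in WT. The highest library exceeded the lowest 1.1-fold, a range smaller than that of all but 1.27% of genes tested. Such ranks, here and for Csnk2a2 and Csnk2b, are over genes of all depths. Csnk2a1 was also the most deeply counted member, with 3707 to 6345 counts a library. Its log2 fold change was −0.04 ± 0.09 in Pcgf3KO (adjusted p = 0.888), −0.10 ± 0.09 in Pcgf5KO (0.592) and −0.04 ± 0.09 in DKO (0.834). Csnk2a2 (ENSMUSG00000046707, chromosome 8, 95446096 to 95488820, minus strand), the second catalytic subunit gene, had 83.1 and 83.0 CPM in Pcgf3KO cells, 78.1 and 77.0 in Pcgf5KO cells and 83.0 and 80.3 in DKO cells, against 77.7 in WT. It had the narrowest range of the members, 1.08-fold, with 0.555% of genes tested narrower. Its log2 fold change was 0.10 ± 0.10 in Pcgf3KO (adjusted p = 0.687), 0.00 ± 0.10 in Pcgf5KO (0.994) and 0.07 ± 0.09 in DKO (0.711).

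Csnk2b (ENSMUSG00000024387, chromosome 17, 35116196 to 35122053, minus strand), the regulatory subunit gene, differed more between libraries than the catalytic genes. Its highest library exceeded its lowest 1.36-fold, and 35.1% of genes tested had a smaller range. Csnk2b had 86.6 and 85.6 CPM in Pcgf3KO cells, 98.8 and 103 in Pcgf5KO cells and 75.6 and 92.2 in DKO cells, against 86.9 in WT. The Pcgf5KO pair was above the other 5 libraries, and the DKO replicates differed 1.22-fold. Against WT the log2 fold change was −0.01 ± 0.12 in Pcgf3KO (adjusted p = 0.977), 0.21 ± 0.12 in Pcgf5KO (0.385) and −0.05 ± 0.12 in DKO (0.854). Between edited groups it was −0.26 ± 0.10 in DKO against Pcgf5KO (adjusted p = 0.147) and 0.23 ± 0.10 in Pcgf5KO against Pcgf3KO (0.585). Csnk2b over the sum of the catalytic genes, per kilobase, was 0.779 and 0.787 in Pcgf3KO cells, 0.932 and 0.987 in Pcgf5KO cells and 0.664 and 0.878 in DKO cells, against 0.782 in WT.

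How tightly do these data bound the differences from WT? For 6 members (Rnf2, Rybp, Auts2, Csnk2a1, Csnk2a2 and Csnk2b) the 95% intervals of all 3 knockouts lay within 0.5 on the log2 scale of WT. Rybp (down to −0.485), Auts2 (up to 0.481) and Csnk2b (up to 0.493) came close to that limit. For Ring1, Yaf2, Fbrs and Fbrsl1 at least 1 interval reached further, up to 1.15 for Ring1 in Pcgf5KO and down to −0.96 for Yaf2 in Pcgf5KO. These 4 are also the members whose WT library lay beyond all 6 edited libraries, as it did for 38.3% of all genes tested. The share of 4 in 10 is close to that background. Each comparison with WT uses the same WT library, so its deviation enters all 3. The intervals take the spread of WT from the edited groups, and hold only if WT varied as those groups did. They are per gene, without adjustment for the number of genes, and the limit of 0.5 is an arbitrary choice.

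The calls depended on the DKO libraries, since all groups share 1 estimate of the spread. The biological coefficient of variation was 9.07% with all 7 libraries and 3.82% without DKO replicate 1 or 2. Without either, 5 members passed edgeR's test in Pcgf5KO against WT: Ring1, Rybp, Yaf2, Fbrsl1 and Csnk2b. Without DKO replicate 1 their log2 fold changes were 0.67, −0.26, −0.55, 0.31 and 0.21, with adjusted p of 0.0042, 0.000921, 0.00561, 0.000674 and 0.0165, and 26.8% of all genes were then called (26.4% without DKO replicate 2). In Pcgf3KO against WT 0 members passed, beside 20.6% of all genes without DKO replicate 1 and 20.2% without DKO replicate 2. In Pcgf5KO against Pcgf3KO, Csnk2b passed both times (0.22, adjusted p = 0.0045 and 0.00464), beside 12.4% and 12.2%. In Pcgf5KO against WT without a Pcgf5KO replicate, the smallest adjusted p among the members was 0.418 (Yaf2).

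**Figure D5:**
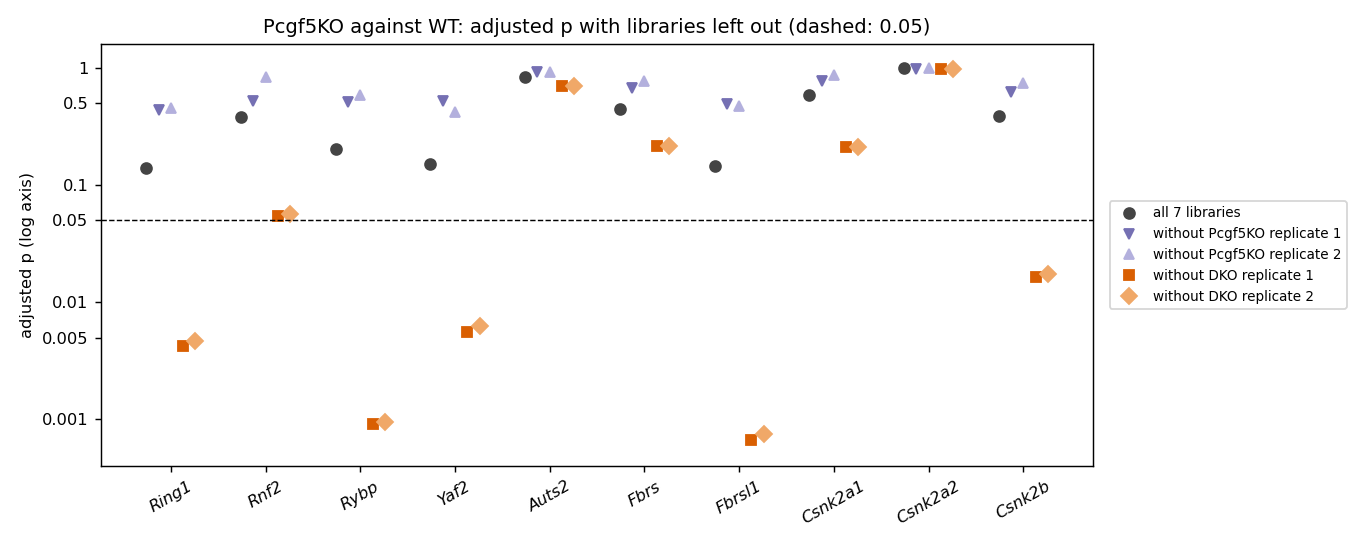
Adjusted p (log axis, dashed line at 0.05) of each partner gene in Pcgf5KO against WT with all 7 libraries and with 1 Pcgf5KO or DKO library left out. Ring1, Rybp, Yaf2, Fbrsl1 and Csnk2b fall under the line without either DKO library, and under no other setting drawn.

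In DKO against WT the members called depended on which DKO library was left in. Without DKO replicate 1, Ring1 (0.72, adjusted p = 0.00699) and Fbrsl1 (0.32, 0.00215) passed, beside 16.2% of all genes. Without DKO replicate 2, Yaf2 (−0.53, 0.0159), Auts2 (0.27, 0.0393), Fbrs (0.34, 0.0434), Fbrsl1 (0.42, 3.56e-05) and Csnk2b (−0.20, 0.0425) passed, beside 34.5%. Fbrsl1 was the 1 member called both times. These fits take the spread of the lone DKO library from the other groups. Without DKO replicate 2, Rybp passed in DKO against Pcgf3KO (0.20, adjusted p = 0.00777), in DKO against Pcgf5KO (0.31, 3.16e-05) and for the interaction (0.46, 2.83e-05), where it passed without DKO replicate 1 too (0.26, 0.0212). In the same fit Auts2 and Csnk2b passed against both single knockouts, Fbrsl1 against Pcgf3KO and Csnk2b for the interaction. Background shares without DKO replicate 2 were 35.8% against Pcgf3KO, 42.3% against Pcgf5KO and 36.7% for the interaction, and without DKO replicate 1, where 0, 0 and 1 members passed, 12.6%, 16% and 24.1%. For any difference among the groups, 5 members passed without DKO replicate 1 (38.4% of all genes) and 6 without DKO replicate 2 (55.3%).

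Other Polycomb genes give the setting. The 7 lists of PRC1 partners, opposing enzymes and related genes hold 42 different genes, all tested. Pcgf3 was lower in Pcgf3KO (−0.79 ± 0.14, adjusted p = 0.021) and Pcgf5 in Pcgf5KO (−0.94 ± 0.18, adjusted p = 0.0292), which were the only calls of edgeR among the 6 PCGF paralogs. The other lists hold 12 canonical PRC1 partners (Cbx and Phc genes among them), 5 partners of PCGF1 complexes and 9 of PCGF6 complexes. They also hold 4 other interactors of PCGF3 and PCGF5, 5 genes of deubiquitinases and their partners, and 3 histone variant genes. These lists gave 0 calls of edgeR in each of the 7 comparisons. Of all genes tested, edgeR called from 0.14% (Pcgf5KO against Pcgf3KO) to 3.79% (interaction). At such shares, 0 of the 40 genes other than Pcgf3 and Pcgf5 is near the background and is no result about them. At an unadjusted p of 0.05, of the 40 genes other than the targets, edgeR gave 3 in Pcgf3KO against WT (15.9% of all genes), 5 in Pcgf5KO against WT (19.5%) and 7 in DKO against WT (19.4%). It gave 6 in DKO against Pcgf3KO (18.2%), 7 in DKO against Pcgf5KO (25.8%), 5 in Pcgf5KO against Pcgf3KO (8.5%) and 4 for the interaction (23.2%). The median log2 fold change of these 40 was −0.02 in Pcgf3KO, −0.01 in Pcgf5KO and 0.06 in DKO against WT. DESeq2 called 0 of the 40 in 6 comparisons and 2, H2afz and Phc3, in DKO against Pcgf5KO, where it called 5.13% of all genes, so that 2 of 40 is near the background.

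Summed levels of markers of other cells were lower in all 6 edited libraries than in the 1 WT library. For 38.3% of all genes tested, the WT library lay beyond all 6 edited libraries. Of 11 feeder fibroblast markers 9 passed the filter. Against WT, 3 were called lower in Pcgf3KO cells, 1 in Pcgf5KO cells and 3 in DKO. The shares of all genes called were 2.36%, 2.99% and 3.22%. By estimate 9, 8 and 8 of the 9 were below WT. Thy1 was above WT in both DKO libraries, at 22.1 and 33.3 CPM against 19.8. In DKO against Pcgf3KO, Mmp2 and Thy1 were called higher and Tagln lower, beside 1.74% of all genes. The summed level of all 11 was 75.5 to 86.9 CPM in Pcgf3KO, 98.1 to 99.4 in Pcgf5KO and 80.7 to 97.4 in DKO cells, against 136 in WT. Tagln, Mmp2 and Thy1 made up most of that sum. Postn was at 0 in Pcgf3KO replicate 1 and DKO replicate 1, and Fap in Pcgf3KO replicate 1 and Pcgf5KO replicate 1. Of 5 extraembryonic endoderm markers 1, Dab2, was called lower in each knockout against WT. The sum of the 5 was at most 10.9 CPM in the edited libraries and 14.7 in WT. The part of these markers in the members' values was not tested. In bulk RNA, fewer cells of a type and less RNA per cell cannot be told apart.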

How the data were processed

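For each of 8 libraries the authors deposited raw read counts by Ensembl gene, per the file headers. TopHat2 2.0.12, Cufflinks 2.2.1, HTSeq 0.6.0 and mm10 appear in the submitters' processing notes without role or order. For the annotation release and strand setting: not given in the sources used here. Symbols, exons and transcripts are from GENCODE M21 (46488 of 47069 identifiers matched), promoters from RefSeq (GRCm38.p6). Coordinates of genes are those of the deposited tables. 0 entries named no gene.

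Differences were tested with edgeR 4.0.16 in R 4.3.3 (glmQLFit, glmQLFTest) on the 7 full libraries, with group as the only term, TMM and filterByExpr, which kept 15669 genes and 99.93% of counts and left 3 residual degrees of freedom. Benjamini-Hochberg adjustment ran over all genes tested. A gene was called at an adjusted p of at most 0.05, and every adjusted p comes from edgeR unless DESeq2 1.42.0 is named. CPM used TMM-scaled library sizes. ± is a standard error. On counts simulated with 1 spread for all genes, the fit recovered 89 of 100 changes of 1 on the log2 scale in DKO against WT. It recovered 99 of 100 changes of 2, with 10 false calls. Changes under 1, and the wider gap between the DKO libraries, were not simulated. All members were named. Other genes followed a rule (targeted genes, called list members, and the 3 genes most alike in pattern). H2afz, Phc3 and single markers of ES cells and of other cells were named after their values were seen. Members and lists were chosen with earlier results of these data known.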

Additional observations from a re-analysis of the deposited data

How the results depend on the processing

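The 8-library fit gave no value, since 0 members are listed in WT replicate 1, and no comparison with WT could be fitted without WT replicate 2. With DESeq2, DESeq2 size factors, no filter on low counts or a mean CPM of at least 1, 0 members were called in all 8 tests, and the replicate block also gave 0. The labels tie no batch to the numbers, and deviations of same-numbered libraries correlated at −0.01, 0.14 and 0.01. With 1 library left out, members called ranged from 0 to 0 in Pcgf3KO against WT, 0 to 5 in Pcgf5KO against WT, 0 to 5 in DKO against WT, 0 to 4 in DKO against Pcgf3KO, 0 to 3 in DKO against Pcgf5KO, 0 to 1 in Pcgf5KO against Pcgf3KO, 0 to 2 for the interaction and 0 to 6 for any difference. All 29 such calls in single comparisons came without a DKO library.

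Of 800 member values under alternatives, 19 changed sign, and none of these was over 0.1026 on the log2 scale in size with all 7 libraries. The cause was not tested. Csnk2b in Pcgf3KO against WT was 0.042 with the replicate block. In DKO against Pcgf3KO, Fbrs was −0.0094 without the filter and Csnk2a1 0.0096 with a mean CPM of at least 1. With 1 library left out, Pcgf3KO against WT ran from −0.046 to 0.0056 for Rnf2 and −0.0098 to 0.086 for Auts2, and Pcgf5KO against WT from −0.013 to 0.0078 for Csnk2a2. DKO against WT ran from −0.14 to 0.055 for Rybp, −0.11 to 0.025 for Csnk2a1 and −0.1998 to 0.084 for Csnk2b. DKO against Pcgf3KO ran from −0.0013 to 0.197 for Rybp, −0.077 to 0.072 for Fbrs, −0.074 to 0.0602 for Csnk2a1 and −0.19 to 0.096 for Csnk2b. DKO against Pcgf5KO ran from −0.28 to 0.055 for Ring1, −0.016 to 0.13 for Fbrs and −0.011 to 0.12 for Csnk2a1. The interaction ran from −0.04997 to 0.0025 for Csnk2a2. Depth limits Ring1 and Yaf2 most, at 110 to 233 counts a library.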

Other observations

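The genes whose pattern over the 7 full libraries was most like that of Fbrsl1, the member with the smallest p for any difference among the groups, were the zinc finger gene Zfp981 (Pearson r = 0.983 of log2 CPM), Dscc1 (0.981) and Hus1 (0.978), out of 10288 genes with a mean of at least 5 CPM. Zfp981 had 120 and 109 CPM in Pcgf3KO cells, 148 and 145 in Pcgf5KO cells and 175 and 141 in DKO cells, against 98.1 in WT. Hus1, of the DNA damage checkpoint, had 108 and 102 CPM in Pcgf3KO cells, 111 and 109 in Pcgf5KO cells and 120 and 114 in DKO cells, against 93.4 in WT. These correlations are over libraries of the same 4 groups, were picked as the highest of many, and are descriptions only.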
